A study of Homo sapiens with 9 samples.

Results

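The transcripts described here were those annotated as nonsense-mediated decay (NMD) substrates that were expressed at a mean of at least 1 TPM (abundance of a transcript per length, as its part of the sum over all transcripts of a library) over the 9 libraries. They numbered 2721 of the 15121 NMD-annotated transcripts in the tables, or 18.0%, and came from 1956 genes. The libraries were made from poly(A) RNA of K562, a human erythroleukaemia cell line, harvested on day 4 after the first siRNA transfection. There were 3 libraries of cells given a non-targeting siRNA (SCR), 3 of cells given siRNA against DHX34 (DHX34_kd) and 3 of cells given siRNA against UPF1 (UPF1_kd). By the study's methods the cells were transfected again with the same siRNA on day 3. The labels named no other alteration in any group. The labels gave the treatment of the SCR libraries as WT and spelled the cell line K652 in places. They did not say which dishes the replicates came from, so p-values measure only the spread between these samples.

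NMD is a quality control pathway in which a ribosome that stops well upstream of an exon junction leads to decay of the mRNA. UPF1 is the RNA helicase at its centre, and DHX34 is a further helicase reported to act with it. Many genes of RNA-binding proteins make such transcripts in a regulated way, by including a "poison" exon that carries an in-frame stop codon or by skipping an exon so that the reading frame shifts. In the annotation used here a transcript has the NMD type when its reading frame ends at least 50 nt before the last exon junction, so the type is a prediction from the transcript model and not a measurement of decay.

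For the transcripts that rose most in UPF1_kd and carried their stop codon in an exon that the coding partner lacks, the stop and the bases around it are shown, since they let a reader see where the frame ends. The partner is the most abundant protein-coding transcript of the gene. Each run is 30 bases of the mRNA, 5′ to 3′, lies inside the extra exon and has the stop codon in capitals. The positions are those of GRCh38: RBM39-206 at chr20:35740525-35740554 (minus strand, in an exon of 73 nt), NPIPB12-201 at chr16:29500230-29500259 (minus strand, 277 nt), VAPB-206 at chr20:58440907-58440936 (plus strand, 177 nt), SNRPB-203 at chr20:2467243-2467272 (minus strand, 124 nt), DNAJC25-202 at chr9:111642914-111642943 (plus strand, 238 nt), SLC25A3-213 at chr12:98595576-98595605 (plus strand, 229 nt) and LDHA-222 at chr11:18400837-18400866 (plus strand, 174 nt).
RBM39-206: ttgattccagtgtgaactgtcaatcaTAAg
NPIPB12-201: gctacatggatgTGAtggagatggtttact
VAPB-206: caTGAtgtagaaataaataaaattatatcc
SNRPB-203: tttgtaaagctgTAGcctaaagggctctcc
DNAJC25-202: cagttattcctgTAGagattagaaacaagg
SLC25A3-213: actagagcatatTGAagcatgactgactgt
LDHA-222: actataatgTAActgcaaactccaagctgg
In VAPB-206 the stop codon began after 2 bases of the extra exon, and in LDHA-222 after 9.

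The depth ran from 73478797 to 103625443 expected counts per library. DHX34 (gene level) was at 70.7 ± 1.37 CPM in SCR, 31.9 ± 2.84 in DHX34_kd and 76.7 ± 1.87 in UPF1_kd (SD, n = 3), and it fell in its own knockdown (log2 fold change -1.23, edgeR adjusted p 3.33e-07). UPF1 was at 250.9 ± 8.89, 264.0 ± 6.71 and 108.3 ± 1.28 CPM in the same order (SD, n = 3), and it fell in its own knockdown (log2 fold change -1.31, edgeR adjusted p 2.41e-10). All 16 erythroid markers checked were at 1 TPM or more, with a summed level of 34954 to 36334 TPM in SCR, 31511 to 33321 in DHX34_kd and 21548 to 22208 in UPF1_kd. Of 6 markers of monocytes and granulocytes 1 (LYZ) reached that level, with a summed level of 14.1 to 14.7, 29.8 to 32.9 and 12 to 12.9 TPM. Of 7 epithelial markers 3 (EPCAM, KRT8 and KRT18) did, with 684.4 to 694.9, 676.5 to 694.8 and 585.7 to 603.7 TPM, while KRT5 and KRT14 were at 0. In bulk RNA fewer cells of a type and less RNA per cell cannot be told apart, and the part of these marker levels in the results was not tested.

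Most of the expressed NMD-annotated transcripts were minor isoforms. Their mean level had quartiles of 1.61, 2.8 and 6.04 TPM, 202 of them were over 20 TPM and 23 were at 100 TPM or more. A gene held 1 such transcript in 1421 cases and 2 or more in 535, with a maximum of 7 in TAF1D. For 2681 of them the gene also had a protein-coding transcript, and 40 had no such partner. The median share of the transcript in the sum of itself and the coding transcripts of its gene was 8.68% in SCR, 8.92% in DHX34_kd and 12.8% in UPF1_kd.

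The highest level of all was that of RPS3-218, from the gene of a ribosomal protein of the small subunit, at a mean of 869.2 TPM. It was followed by HNRNPA1-205, from the gene of an abundant splicing repressor, B2M-209, from the gene of the light chain of MHC class I, RACK1-224, from the gene of a ribosome-bound scaffold protein, and RPL11-204, from the gene of a protein of the large ribosomal subunit. B2M-209 had 401.6, 393.4 and 416.1 TPM in the SCR libraries, 558.4, 561.5 and 536.9 in DHX34_kd and 441.0, 445.3 and 475.4 in UPF1_kd. It held 99.9% of the sum of itself and the annotated coding transcripts of B2M in every group, and its reading frame ended at the stop of the coding partner, so nearly all of the B2M level counted here was that of the NMD-annotated transcript.

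The rule selected transcripts on their mean over all libraries. Of the 2721, 2234 were at 1 TPM or more on average in SCR, 2356 in DHX34_kd and 2683 in UPF1_kd. The 487 that were under 1 TPM in SCR owed their place to the knockdowns, and 480 of them were at 1 TPM or more in UPF1_kd and 267 in DHX34_kd. Just inside the limit were NTAQ1-207, UBE2F-216 and COQ7-205, with means of 1.0009, 1.0017 and 1.0018 TPM. Just outside it were DYNC1I2-217, NT5C2-207 and CCDC138-204, with 0.99883, 0.9986 and 0.99853 TPM.

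The transcripts together took 2.07%, 2.1% and 2.05% of all TPM in the SCR libraries, 2.1%, 2.11% and 2.14% in DHX34_kd and 2.72%, 2.75% and 2.71% in UPF1_kd. The UPF1_kd libraries lay above the other 6, while those of SCR and of DHX34_kd touched. The group means were 2.07% ± 0.026, 2.11% ± 0.0221 and 2.73% ± 0.0184 (SD, n = 3). The coding transcripts of the same genes took between 17.9% and 18.5% of TPM in each of the libraries. Over the 2669 transcripts with a measured coding partner, the median log2 ratio of the transcript to the coding sum of its gene was -3.38, -3.31 and -3.37 in SCR, -3.39, -3.34 and -3.25 in DHX34_kd and -2.78, -2.78 and -2.79 in UPF1_kd. The ratio was thus 0.57 higher in UPF1_kd than in SCR and 0.03 higher in DHX34_kd, against SDs between replicates of 0.0369 in SCR, 0.0694 in DHX34_kd and 0.00783 in UPF1_kd. No p-value is given for these scores, since the transcripts were chosen on their level.

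**Figure D1:**
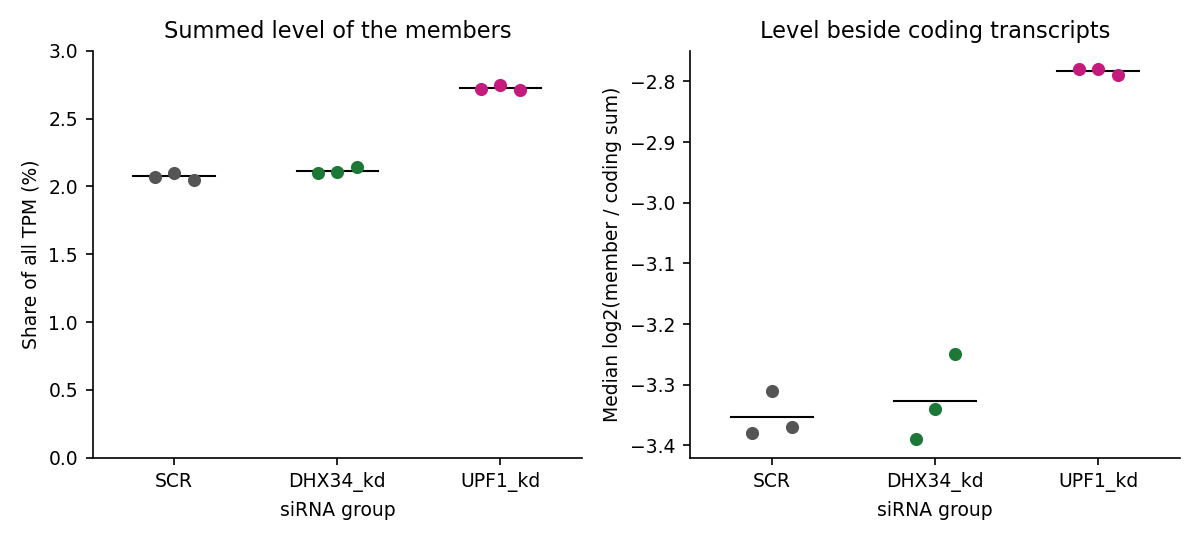
The left panel plots the share of all TPM (percent) held by the 2721 NMD-annotated transcripts and the right panel the median over 2669 of them of the log2 ratio to the coding sum of their gene, one point per library and group with the group mean as a line. The 3 UPF1_kd libraries sit at 2.71% to 2.75% and at -2.79 to -2.78, above the other 6 in both panels, and the SCR and DHX34_kd points overlap on the right.

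The first comparison asked which of these transcripts respond to a reduced level of the core NMD factor. In UPF1_kd 120 of 2708 tested transcripts, from 109 genes, rose against SCR and 10 fell at an edgeR adjusted p of at most 0.005. That is 4.43% risen, beside 0.97% of all 62497 transcripts tested, and 0.369% fallen, beside 1.62% of all. The remaining 13 had too few counts to be tested. The median log2 fold change was 0.38, beside 0.06 over all transcripts tested, and that of the 120 was 1.59. At a threshold of 0.05, 518 (19.1%) rose and 71 (2.62%) fell, where 4.58% and 5.72% of all transcripts did. For 1544 of the 2708 (57.0%) all UPF1_kd libraries lay above all SCR libraries in TPM and for 78 (2.88%) below, beside 32.0% and 4.95% of all transcripts. The 120 all had groups that did not overlap.

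Since the rule used the UPF1_kd libraries, the comparison was repeated on those of the 2721 transcripts at 1 TPM or more in DHX34_kd. That group takes no part in the comparison, and the alternative was chosen after seeing the data. The 2721 had already passed the rule on all 9 libraries, so the choice on UPF1_kd was not removed. Of 2345 tested 105 (4.48%) rose and 10 fell, with a median log2 fold change of 0.30. When chosen at 1 TPM in SCR, 104 rose and 10 fell, with a median of 0.24. Of the 120 risen transcripts 16 were under 1 TPM in SCR. The number of calls rested on all 6 libraries: it was 14 risen without SCR replicate 1, 42 without replicate 2 and 14 without replicate 3, and 3, 4 and 5 without UPF1_kd replicates 1, 2 and 3, whereas the median log2 fold change stayed between 0.37 and 0.39. In these fits 4 fell without SCR replicate 2 and 0 in each of the others.

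**Figure D2:**
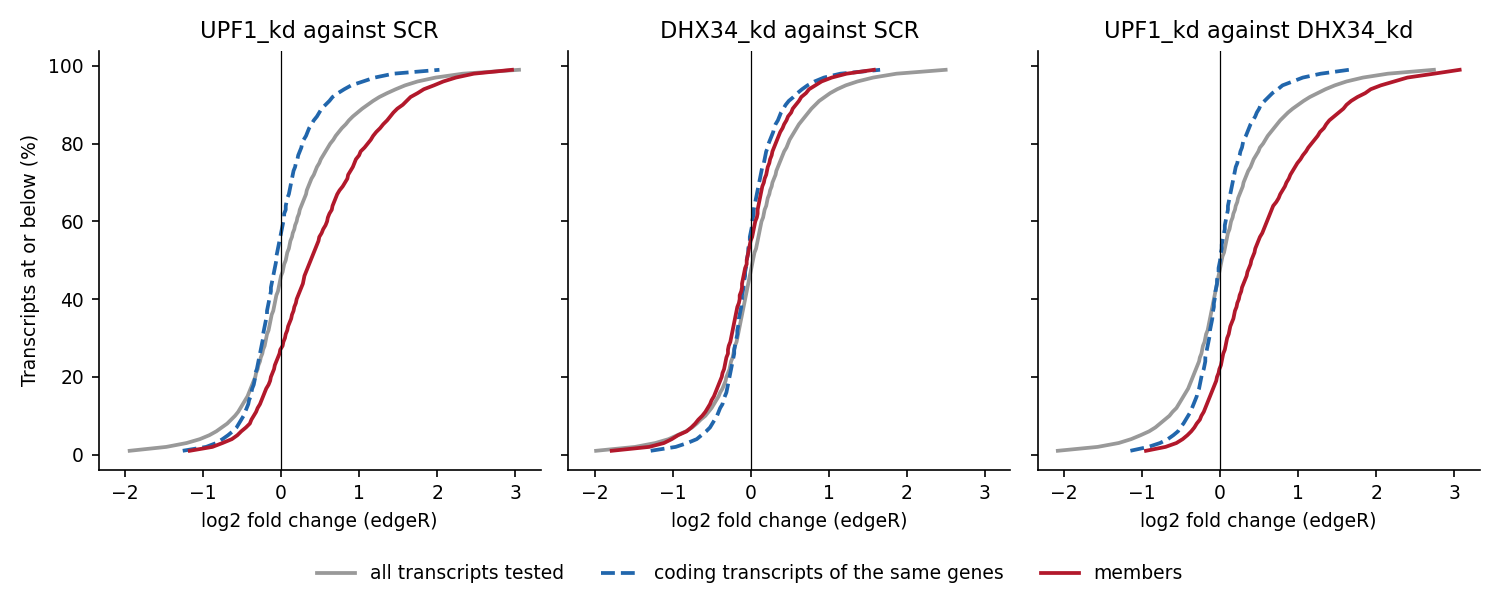
Cumulative share of transcripts (percent, y axis) against the edgeR log2 fold change (x axis) for the NMD-annotated transcripts (red), the coding transcripts of the same genes (dashed blue) and all transcripts tested (grey), one panel per comparison. The red curve lies to the right of the others in both panels with UPF1_kd, with medians of 0.38 and 0.40, and close to them in the panel of DHX34_kd against SCR, with a median of -0.05.

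Among the 20 largest rises, 4 were of transcripts listed at 0 in all SCR libraries, so their fold changes are given as lower bounds against a floor of 3 counts per library. RBM39-206 (ENST00000403542, chr20:35703611-35742274), from the gene of a splicing factor related to U2AF, was at 0 TPM in all SCR and all DHX34_kd libraries and at 15.1, 14.5 and 15.7 TPM in UPF1_kd. It was at least 884-fold higher than in SCR (edgeR adjusted p 0.000154), while the coding transcripts of RBM39 had a log2 fold change of -0.12 (adjusted p 0.0131). In TPM the sign of that coding change was the opposite, with 65.2, 73.8 and 72.7 TPM in SCR and 79.1, 83.0 and 77.9 in UPF1_kd, where all libraries lay above SCR. RBM39-216, which also has its stop in an extra exon, rose from 17.5 ± 2.19 to 36.7 ± 2.01 TPM (SD, n = 3), so another risen isoform of the gene was present without knockdown.

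HNRNPDL-202 (ENST00000349655, chr4:82424629-82429447), from the gene of an RNA-binding protein of the hnRNP D group, was likewise at 0 in 6 libraries and at 18.5, 16.1 and 15.9 TPM in UPF1_kd, at least 443-fold higher than in SCR (edgeR adjusted p 0.000454). Its reading frame ended at the stop of the coding partner, and 2 exon junctions followed it. The coding transcripts of HNRNPDL fell by 0.19 on the log2 scale (adjusted p 0.000456), from 286.8, 282.2 and 272.0 TPM in SCR to 269.8, 264.7 and 260.8. DNAJC2-202, from the gene of a ribosome-associated chaperone, was at 0 in SCR, at 0, 0.639 and 2.1 TPM in DHX34_kd and at 11.4, 8.04 and 8.8 in UPF1_kd, at least 146-fold higher than in SCR (edgeR adjusted p 0.00139). NPIPB12-201, from a gene family copied many times on chromosome 16, was at 0 in SCR, at 4.13, 2.09 and 5.44 TPM in DHX34_kd and at 6.91, 10.1 and 10.7 in UPF1_kd. It was at least 102-fold higher in UPF1_kd (edgeR adjusted p 0.00188), but its reads can be split among near-identical copies, so its level is uncertain.

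Salmon divides reads between isoforms that share exons by likelihood, so an isoform listed at 0 in some libraries and at 10 TPM or more in others can come from that division or from the RNA, and which of them it is was not tested. The next 7 transcripts were above 0 TPM in every library. SNRPB-203 (ENST00000474384, chr20:2461660-2470732), from the gene of the Sm protein B, a core part of spliceosomal snRNPs, had 1.65, 1.57 and 1.68 TPM in SCR, 2.12, 1.63 and 1.54 in DHX34_kd and 15.5, 13.2 and 14.2 in UPF1_kd. All UPF1_kd libraries were far above the other 6, which overlapped. The log2 change was 2.88 (SE 0.13, adjusted p 0.000391 by edgeR), and the coding transcripts of SNRPB fell by 0.30 (adjusted p 0.000129).

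SNRPA1-207 (ENST00000559309, chr15:101281514-101295204), from the gene of the U2 snRNP protein A′, lacks an exon of 80 nt of its partner. It had 2.14, 3.94 and 2.02 TPM in SCR, 2.84, 4.78 and 3.3 in DHX34_kd and 25.1, 28.9 and 27.0 in UPF1_kd, a log2 change of 3.08 (SE 0.27, adjusted p 0.00186 by edgeR). SF1-211, from the gene of the protein that binds the intron branch point, lacks an exon of 76 nt and went from 0.723, 0.677 and 0.492 TPM in SCR to 5.69, 5.75 and 5.15 (log2 fold change 2.89, SE 0.17, edgeR adjusted p 0.000774). The coding transcripts of SNRPA1 fell by 0.34 (adjusted p 3.06e-05) and those of SF1 had a change of -0.03 (adjusted p 0.464), with a higher mean in TPM (119.6 in SCR and 131.7 in UPF1_kd).

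LDHA-222 (ENST00000545215, chr11:18394563-18407642), from the gene of lactate dehydrogenase A, a glycolytic enzyme, had 6.58, 7.13 and 6.12 TPM in SCR, 9.34, 10.7 and 11.9 in DHX34_kd and 36.1, 33.9 and 35.1 in UPF1_kd. No groups overlapped. It had a log2 change of 2.16 (SE 0.06, adjusted p 9.88e-05 by edgeR) in UPF1_kd and was called in all 6 fits that left out a library. In DHX34_kd the change was 0.53 (SE 0.11) and did not pass the test (adjusted p 0.064). TPM3-219 (chr1:154157112-154183227), from a gene of tropomyosin, the protein that lies along actin filaments, lacks an exon of 134 nt and had 5.43, 5.71 and 4.88 TPM in SCR, 6.38, 5.19 and 5.9 in DHX34_kd and 28.4, 35.8 and 33.1 in UPF1_kd. The log2 change was 2.35 (SE 0.11, adjusted p 0.000425 by edgeR), with coding transcripts that had -0.07 (adjusted p 0.17) and whose mean was 166.4 TPM in SCR and 177.6 in UPF1_kd.

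The coding transcripts rose with the NMD-annotated one in other genes. VAPB-206 (ENST00000520497, chr20:58389366-58444531), from the gene of a membrane protein of the endoplasmic reticulum, had 0.683, 2.22 and 1.01 TPM in SCR, 2.58, 3.0 and 1.05 in DHX34_kd and 17.5, 19.8 and 18.8 in UPF1_kd (log2 fold change 3.61, SE 0.42, edgeR adjusted p 0.00457). The coding transcripts of VAPB went from 22.6, 24.2 and 23.6 TPM in SCR to 55.4, 56.0 and 52.9 and rose by a log2 fold change of 1.04 (adjusted p 1.16e-08). DNAJC25-202 (chr9:111631360-111654351), from the gene of a membrane-bound J-domain protein, had 1.6, 2.14 and 1.68 TPM in SCR, 2.21, 1.77 and 2.26 in DHX34_kd and 11, 11.6 and 12 in UPF1_kd (log2 fold change 2.42, SE 0.12, edgeR adjusted p 0.000502). It held 36.6% of the sum of itself and the coding transcripts in SCR and 64.0% in UPF1_kd, and the coding sum of the gene also rose, by 0.87 (adjusted p 4.86e-05).

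The remaining named rises had log2 fold changes between 2.13 and 3.01 against SCR. They were of DNAJC7-205 (a co-chaperone of HSP70), BZW2-209 (a regulator of start codon choice), EIF3E-215 and EIF3G-205 (subunits of the initiation factor eIF3), SLC25A3-213 (the mitochondrial phosphate carrier), PSMC6-205 (an ATPase of the proteasome), SRSF10-215 (a splicing regulator), TMEM208-203 (a protein of the endoplasmic reticulum) and YARS1-207 (tyrosyl-tRNA synthetase). BZW2-209 had 1.94, 1.56 and 2.12 TPM in SCR, 1.2, 0 and 0 in DHX34_kd and 15.8, 15.4 and 18.2 in UPF1_kd. EIF3G-205 had 3.09, 4.16 and 4.35 TPM in SCR, 3.59, 4.19 and 2.55 in DHX34_kd and 21.1, 22.2 and 18.7 in UPF1_kd. SLC25A3-213 had 1.46, 2.18 and 1.4 TPM in SCR and 9.98, 11 and 9.95 in UPF1_kd, which was 0.211% and 1.35% of the sum of itself and the coding transcripts of its gene. DNAJC7-205, EIF3E-215 and YARS1-207 have other lengths in the later annotation than in the tables, so their features are uncertain. EIF3E-215, PSMC6-205, SRSF10-215, EIF3G-205, TMEM208-203 and YARS1-207 were called in 0 of 6 fits that left out a library. DNAJC2-202, NPIPB12-201, VAPB-206, SNRPA1-207, DNAJC7-205, BZW2-209 and SLC25A3-213 were called in 1 of the 6. SF1-211 and DNAJC25-202 were called in 2, HNRNPDL-202 and SNRPB-203 in 3, TPM3-219 in 4, RBM39-206 in 5 and LDHA-222 in 6.

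**Figure D3:**
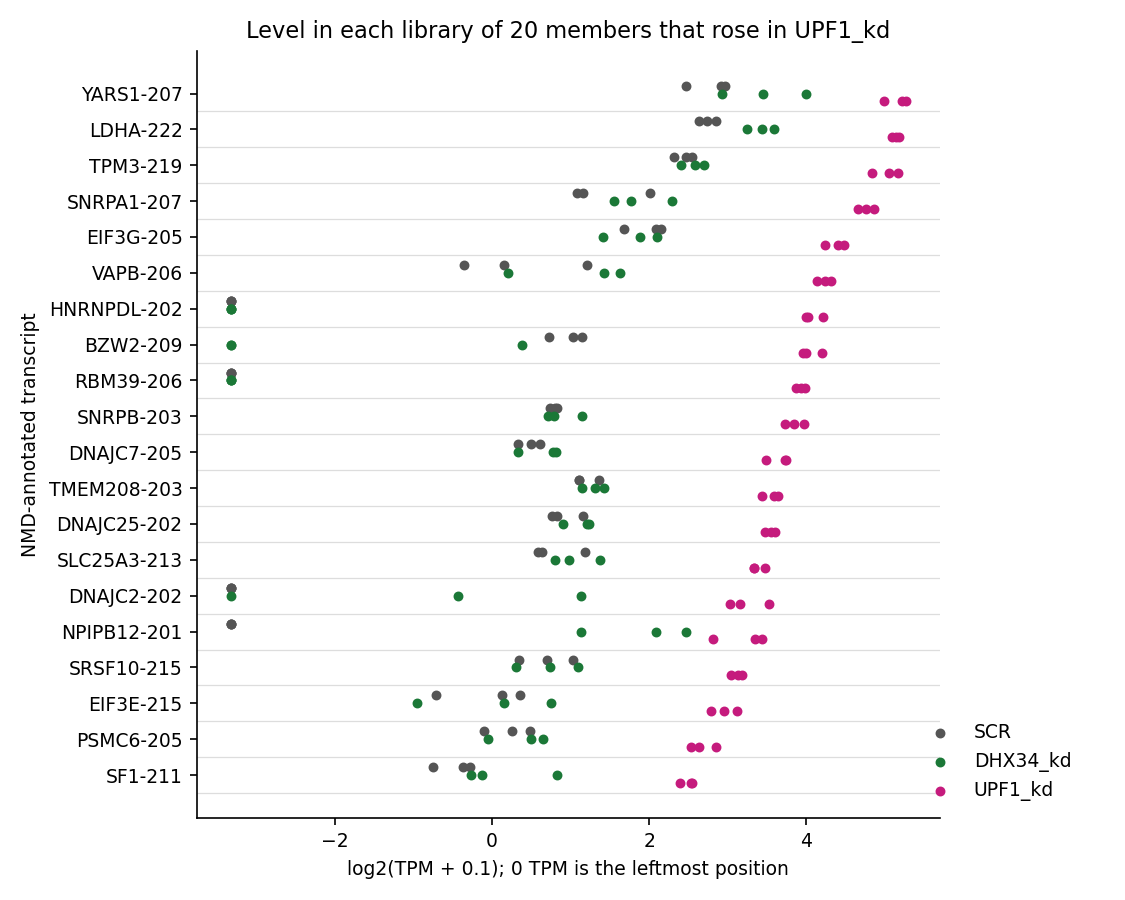
Level per library as log2(TPM + 0.1) (x axis; 0 TPM is the leftmost position) of the 20 named transcripts with the largest rise in UPF1_kd, one row per transcript and one point per library. In every row the 3 UPF1_kd points lie to the right of the SCR points. NPIPB12-201 and LDHA-222 are examples where the DHX34_kd points lie between them, at 2.09 to 5.44 TPM and at 9.34 to 11.9 TPM.

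The 10 falls were small. ENST00000607161, of the gene ENSG00000290146 without a symbol or coding partner, had 41.2, 43.8 and 40.9 TPM in SCR, 40.6, 38.1 and 37.6 in DHX34_kd and 31.8, 34.5 and 29.7 in UPF1_kd (log2 fold change -0.64, SE 0.06, edgeR adjusted p 0.00249). RPS3-218 had 975.7, 915.1 and 939.3 TPM in SCR, 832.2, 832.3 and 788.2 in DHX34_kd and 862.2, 857.4 and 820.6 in UPF1_kd (log2 fold change -0.41, SE 0.04, edgeR adjusted p 0.00316). Both knockdowns lay below SCR for these. SERF2-208 and POLR2L-202, the latter from the gene of a small subunit shared by RNA polymerases, had -0.45, and UQCRB-203, of respiratory complex III, had -0.43. The others were of DNTTIP2-201, HNRNPA1-205, PDIA3-202, RUVBL2-201 and MTREX-207, between -0.25 and -0.41, named after their values were seen.

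The size of the falls depended on the scale. Over all transcripts of at least 10 TPM the median log2 change in UPF1_kd was -0.15 on the edgeR scale and 0.11 in TPM. In TPM, ENST00000607161 changed by -0.39 and RPS3-218 by -0.16 on the log2 scale, and PDIA3-202 was at 138.9 ± 0.604 TPM in SCR and 139.1 ± 1.39 in UPF1_kd (SD, n = 3). Limma on log2 TPM called 211 rises and 0 falls, beside 1.45% and 0.178% of all 75743 transcripts it tested, with 117 of its calls shared with the edgeR fit.

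The second comparison asked whether knockdown of DHX34 raised the same class of transcripts. In DHX34_kd 0 of 2685 tested transcripts rose and 0 fell against SCR by edgeR, where 0.0348% of all 60416 transcripts tested rose and 0.0116% fell. The other 36 had too few counts. At an unadjusted p under 0.05 there were 144 higher and 248 lower, beside 7.45% and 7.79% of all, and at an adjusted p of at most 0.05 there were 16 (0.596%) higher and 40 (1.49%) lower, beside 1.29% and 1.32% of all. DESeq2 called 25 risen and 63 fallen, beside 2.55% and 3.2% of all 41008 transcripts to which it gave an adjusted p. Limma on log2 TPM called 0 and 1, beside 0.0819% and 0.0238% of all. The edgeR fit of all 9 libraries called 2 and 8, beside 0.302% and 0.263%. The median log2 fold change was -0.05, beside 0.03 over all transcripts and -0.03 over the coding transcripts of the same genes. It lay between -0.06 and -0.05 without any 1 library, but it was 0.09 in limma on log2 TPM, where the median over all was 0.12. For 438 transcripts (16.3%) all DHX34_kd libraries were above all SCR libraries and for 180 (6.7%) below, beside 22.1% and 4.94% of all. Over all transcripts of at least 10 TPM the median log2 change here was -0.09 on the edgeR scale and 0.08 in TPM. Both comparisons use the same SCR libraries.

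The 5 transcripts with the smallest p did not pass the test. RACK1-210 had 209.8, 238.2 and 227.0 TPM in SCR, 154.7, 166.6 and 170.8 in DHX34_kd and 219.0, 240.0 and 189.6 in UPF1_kd (log2 fold change -0.61 for DHX34, edgeR adjusted p 0.00828). TOP2B-202, from the gene of DNA topoisomerase II beta, had 7.11, 5.13 and 7.37 TPM in SCR, 1.09, 1.07 and 0.777 in DHX34_kd and 4.56, 3.0 and 3.71 in UPF1_kd (log2 fold change -2.91 for DHX34, edgeR adjusted p 0.00855). For both DHX34_kd was the lowest group and did not overlap the others.

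HNRNPA1-205 had a log2 fold change of -0.34 in DHX34_kd (edgeR adjusted p 0.0093). LUC7L-206, from the gene of a protein associated with the U1 snRNP, was at 0 in all SCR libraries, at 2.77, 2.45 and 2.11 TPM in DHX34_kd and at 3.03, 0.792 and 2.93 in UPF1_kd (edgeR adjusted p 0.0103 for DHX34). RPN1-202, from the gene of a subunit of the oligosaccharyltransferase, had 0.757, 1.03 and 0.906 TPM in SCR, 10.7, 8.32 and 6.89 in DHX34_kd and 4.59, 7.16 and 9.57 in UPF1_kd. The log2 change was 3.10 (SE 0.3, adjusted p 0.0114 by edgeR) in DHX34_kd and 2.74 (SE 0.35, adjusted p 0.00624) in UPF1_kd, and in both knockdowns all libraries lay above SCR.

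DHX34 itself had an NMD-annotated transcript, DHX34-202 (ENST00000460681, chr19:47372797-47382279), with its stop in an extra exon. It had 2.99, 3.21 and 2.17 TPM in SCR, 2.9, 3.11 and 2.8 in DHX34_kd and 4.3, 3.93 and 4.36 in UPF1_kd. The UPF1_kd libraries were the highest, and those of DHX34_kd lay within the range of SCR. The log2 change was -0.07 (SE 0.18, adjusted p 0.926 by edgeR) in DHX34_kd, where the coding transcripts of the gene had -1.40, and 0.35 (SE 0.17, adjusted p 0.29) in UPF1_kd, where they had 0.01. UPF1 had no NMD-annotated transcript at this level.

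The direct comparison of the knockdowns uses no SCR library. Of 2712 transcripts tested 114 (4.2%) were higher in UPF1_kd than in DHX34_kd and 1 (0.0369%) was lower, beside 0.732% and 0.32% of all 64325 transcripts tested. At an adjusted p of at most 0.05 there were 487 higher and 25 lower, beside 3.56% and 2.27% of all. The libraries did not overlap for 1271 transcripts higher in UPF1_kd (46.9%) and for 105 lower (3.87%), beside 18.4% and 9.23% of all. The median log2 difference was 0.40, beside 0.02 over all. SCR takes no part in this comparison. Among those of the 2721 at 1 TPM or more in SCR 102 (4.58%) were higher, with a median of 0.33. These too had first passed the rule on all 9 libraries. There were 71 transcripts that both rose in UPF1_kd against SCR and were higher than in DHX34_kd. Without DHX34_kd replicates 1, 2 and 3 the number higher was 20, 28 and 47, and without UPF1_kd replicates 1, 2 and 3 it was 9, 7 and 7. The median of all transcripts of at least 10 TPM was -0.04 on the edgeR scale and 0.02 in TPM.

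Of the 20 named rises, 12 were higher in UPF1_kd than in DHX34_kd by the test. RBM39-206 was at least 938-fold and HNRNPDL-202 at least 470-fold higher, and log2 differences ran from 1.66 for LDHA-222 (edgeR adjusted p 0.000341) to 3.02 for DNAJC7-205 (edgeR adjusted p 0.00125). For 8 the difference did not pass: NPIPB12-201 had 1.22 (edgeR adjusted p 0.132), DNAJC2-202 3.37 with an SE of 1.23 (0.209), BZW2-209 5.20 with an SE of 1.38 (0.0935), VAPB-206 3.01 (0.0104), SF1-211 2.29 (0.0156), EIF3E-215 2.91 (0.0225), PSMC6-205 2.32 (0.0069) and YARS1-207 1.61 (0.0171). The single lower transcript, named after its value was seen, was NCKAP1L-204, from the gene of a subunit of the WAVE complex of blood cells. It was at 1.82 ± 0.36 TPM in SCR, 4.78 ± 0.326 in DHX34_kd and 1.91 ± 0.2 in UPF1_kd (SD, n = 3), and the log2 difference between the knockdowns was -1.39 (edgeR adjusted p 0.00211).

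The coding transcripts of the same genes did not move with the NMD-annotated ones as a class. Of 7133 such coding transcripts tested in UPF1_kd 72 (1.01%) rose and 230 (3.22%) fell, with a median log2 fold change of -0.03. When the coding transcripts were summed per gene, 305 of 1908 genes (16.0%) rose and 359 (18.8%) fell, beside 13.5% and 14.3% of all genes with a coding sum tested. Of the 359 that fell by edgeR, 298 had a lower mean in UPF1_kd in TPM and 61 a higher one, and for 163 all UPF1_kd libraries lay below all SCR libraries in TPM. The median over all coding sums was 0.01 by edgeR and 0.19 in TPM. In DHX34_kd 82 of 1906 (4.3%) rose and 230 (12.1%) fell, beside 7.25% and 7.35%, and of the 230 there were 218 with a lower mean in TPM. This number rested on single libraries: 312 sums were called in all, and 111 without SCR replicate 3, 133 without SCR replicate 1, 203 without SCR replicate 2, 136 without DHX34_kd replicate 1 and 172 without DHX34_kd replicate 2.

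Of the 120 NMD-annotated transcripts that rose in UPF1_kd, 23 were in genes whose coding sum rose, 41 in genes whose coding sum fell, 54 in genes without a call, and 2 had no tested sum. Of all 1908 genes tested that held such a transcript, 16.0% rose and 18.8% fell. Counted by gene, 22 of 107 coding sums rose and 37 fell. Of these 37, 33 had a lower mean in TPM and 4 a higher one. For 24 all UPF1_kd libraries lay below all SCR libraries in TPM. The largest changes of the coding sum among the 23 were in the genes of CCNB1IP1-213 (1.30), VAPB-206 (1.04), KCNMB3-204 (1.03), PARP6-207 (1.00) and VWDE-203 (0.98), named after their values were seen. CCNB1IP1-213, from the gene of a ubiquitin ligase that acts on cyclin B, had a log2 fold change of 2.10 itself. Of the 114 transcripts higher in UPF1_kd than in DHX34_kd, 26 were in genes whose coding sum was higher too and 7 in genes where it was lower, beside 9.53% and 8.23% of all coding sums tested. Of the 10 transcripts that fell in UPF1_kd against SCR, 7 were in genes whose coding sum fell, beside the 18.8% above. Where a gene had 2 or more expressed NMD-annotated transcripts, exactly 1 had risen in 42 genes and 2 or more had in 9.

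In the ratio of each transcript to its gene's other coding transcripts, tested by limma on the log2 scale with 0.1 TPM added, 5 of 2669 rose and 0 fell in UPF1_kd, beside 0.0443% and 0.0285% of all 63197 ratios. They were RBM39-206, HNRNPDL-202, DNAJC2-202, NPIPB12-201 and PTK2-234, each at 0 in all SCR libraries, so the ratio depends on the added value. At an adjusted p of at most 0.05, 56 rose and 0 fell, beside 0.35% and 0.15% of all, and at an unadjusted p under 0.05 there were 866 higher and 64 lower, beside 9.6% and 4.68% of all. The median log2 difference of the ratio was 0.44, beside 0.10 over all, and from 0.42 to 0.45 without any 1 library. This is a median over the differences of single transcripts, where the difference of the library medians given above was 0.57. In simulated data this test called 0% of ratios changed 4-fold at 0.005 and 44% at 0.05, so its count at 0.005 says little at this number of libraries. The changed ratios were drawn from those with a spread between SCR replicates below the median, so the 44% does not cover noisier ones. In DHX34_kd 0 rose and 0 fell by limma, with 101 higher and 116 lower at an unadjusted p under 0.05, beside 4.65% and 4.41% of all, and 5 and 2 at an adjusted p of at most 0.05. Of all ratios 0.0253% rose and 0.0237% fell at 0.005, and 0.155% and 0.104% at 0.05. The median difference was 0.00. Between the knockdowns 4 ratios were higher in UPF1_kd and 0 lower by limma, beside 0.0142% and 0.00949% of all, and at 0.05 there were 44 and 1, beside 0.25% and 0.0981%.

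**Figure D4:**
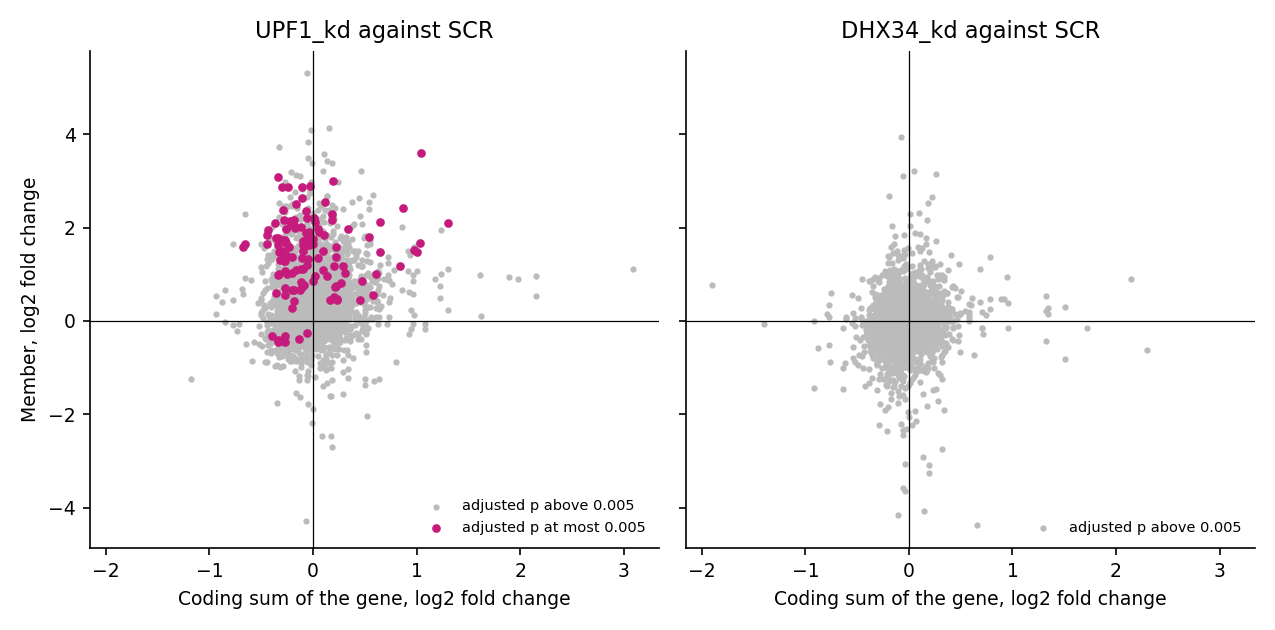
Log2 fold change of each NMD-annotated transcript (y axis) against that of the coding sum of its gene (x axis) by edgeR, one point per transcript, for UPF1_kd and DHX34_kd against SCR, with coloured points for transcripts at an adjusted p of at most 0.005. Transcripts without a tested coding sum and the 13 listed at 0 in all SCR libraries are left out. The coloured risen ones lie on both sides of 0 on the x axis, and the coloured fallen ones lie left of 0. In DHX34_kd no point is coloured.

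The features of a transcript were read for the 2516 with the same length in both annotations, as the difference from the coding partner up to the stop. An alternative splice site was the difference in 711 (28.3%), a skipped exon in 646 (25.7%), an extra exon in 607 (24.1%), several of these in 265, no difference up to the stop in 112, an intron spliced out of a coding exon in 67, another start in 44 and a kept intron in 26, and 38 had no coding partner. Counts of risen transcripts per class were 33 of 709 tested with an alternative splice site (4.65%), 36 of 605 with an extra exon (5.95%), 20 of 642 with a skipped exon (3.12%), 10 of 111 with no difference up to the stop (9.01%), 8 of 264 with several (3.03%), 4 of 67 with an intron spliced out (5.97%), 3 of 44 with another start (6.82%) and 0 of 26 with a kept intron, where 4 rose at 0.05. By edgeR the median log2 fold change in UPF1_kd was 0.52 with an extra exon, 0.45 with an alternative splice site, 0.38 with a skipped exon, 0.35 with no difference up to the stop, 0.28 with a kept intron, 0.24 with another start, 0.20 with several, 0.14 with an intron spliced out and 0.05 with no coding partner. These classes, and those by stop and exon in the next paragraphs, hold transcripts chosen on a mean that includes UPF1_kd. Chosen at 1 TPM in SCR, the median over all the transcripts was 0.24 and not 0.38. No such choice is given per class. The classes are given as descriptions, with no test between them. In DHX34_kd their medians lay between -0.12 (skipped exon) and 0.12 (kept intron).

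The UPF1_kd libraries lay apart from the others in the large classes. The median log2 ratio of transcripts with an extra exon to the coding sum was -3.59, -3.53 and -3.51 in SCR, -3.46, -3.48 and -3.34 in DHX34_kd and -2.95, -2.93 and -3.01 in UPF1_kd. For a skipped exon it was -3.26, -3.07 and -3.14, then -3.12, -3.27 and -3.16, and then -2.54, -2.63 and -2.51. In both classes the UPF1_kd libraries were above the other 6. For an intron spliced out of an exon the median ratio was -1.98, -1.86 and -1.83 in SCR and -1.92, -1.97 and -1.93 in UPF1_kd, so there the library medians overlapped. The median of the ratio differences of single transcripts was 0.21 in that class, beside 0.44 over all NMD-annotated transcripts. For 46.3% of them all UPF1_kd libraries lay above all SCR libraries in TPM, beside 32.0% of all transcripts tested.

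The medians also differed with the place of the stop. The stop lay in an extra exon in 595 transcripts (23.6%), at the stop of the partner in 138 (5.48%) and elsewhere in 1745 (69.4%). In UPF1_kd 34 of 594 (5.72%), 11 of 138 (7.97%) and 69 of 1736 (3.97%) rose, and the median log2 fold changes were 0.47, 0.22 and 0.40. The first and the second median differed by 0.25, with an SD between replicates of 0.123 for that difference and no test. The median log2 ratio to coding transcripts was -3.47, -3.51 and -3.45 in SCR and -2.91, -2.87 and -2.95 in UPF1_kd with the stop in an extra exon. With the stop at that of the partner it was -2.43, -2.37 and -2.18 in SCR and -2.28, -2.34 and -2.32 in UPF1_kd, which overlap. The median of the ratio differences of single transcripts was 0.26 there. For 50.7% of these transcripts all UPF1_kd libraries lay above all SCR libraries in TPM, beside 32.0% of all transcripts tested. For 330 transcripts (13.1%) the class of difference was another when the canonical transcript of the gene was taken as partner, and the difference of 0.25 was then 0.37.

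All 2516 stops lay at least 50 nt before the last junction, as the annotation rule demands, with a median of 324 nt and a maximum of 6092 nt. By this distance the medians of the log2 fold change in UPF1_kd were 0.29 from 50 to 100 nt, 0.47 over 100 and up to 200, 0.47 up to 500, 0.36 up to 1000 and 0.24 over 1000 nt. The share that rose was 7.63% over 500 and up to 1000 nt and between 3.36% and 4.37% in the other classes. With 1, 2, 3 and 4 exon junctions after the stop the medians were 0.29, 0.42, 0.46 and 0.58, and with 5 or more 0.33. The risen shares were 3.25%, 3.61%, 4.34%, 6.72% and 5.75% in the same order. With up to 500 nt after the stop the median was 0.51, and with over 2000 nt it was 0.21, while the risen share was 2.56% and 5.11%. From 1 to 4 junctions the median and the risen share thus grew together, and both were lower at 5 or more. Between up to 500 and over 2000 nt after the stop, the class with the higher median had the lower risen share.

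The frame of the exon was read as well. Of the 549 transcripts with their stop in a single extra exon, that exon had a median length of 120 nt (range 23 to 1474), and in 179 (32.6%) the length was a multiple of 3. In the skipped exon class the skipped length was a multiple of 3 in 9 of 646 (1.39%). Median log2 fold changes in UPF1_kd were 0.54 for 525 transcripts with extra exons of a length that is not a multiple of 3 and 0.32 for 229 with a multiple of 3. For skipped exons they were 0.34 (754 transcripts) and 0.09 (53 transcripts). These medians also take in transcripts of the class with several differences, so they cover more than the extra exon and skipped exon classes.

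Stop codons were TGA in 1510, TAA in 530 and TAG in 475 transcripts, with medians of 0.40, 0.38 and 0.39. Risen shares differed with the completeness of the model while medians were close: 4 of 432 tested transcripts (0.926%) whose model lacks the coding start rose, and 111 of 2074 (5.35%) of the others, with medians of 0.40 and 0.39. By the annotation's support level, from 1 (best supported) to 5, the risen share was 7.6%, 5.01%, 1.98%, 0.826% and 4.48%.

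**Figure D5:**
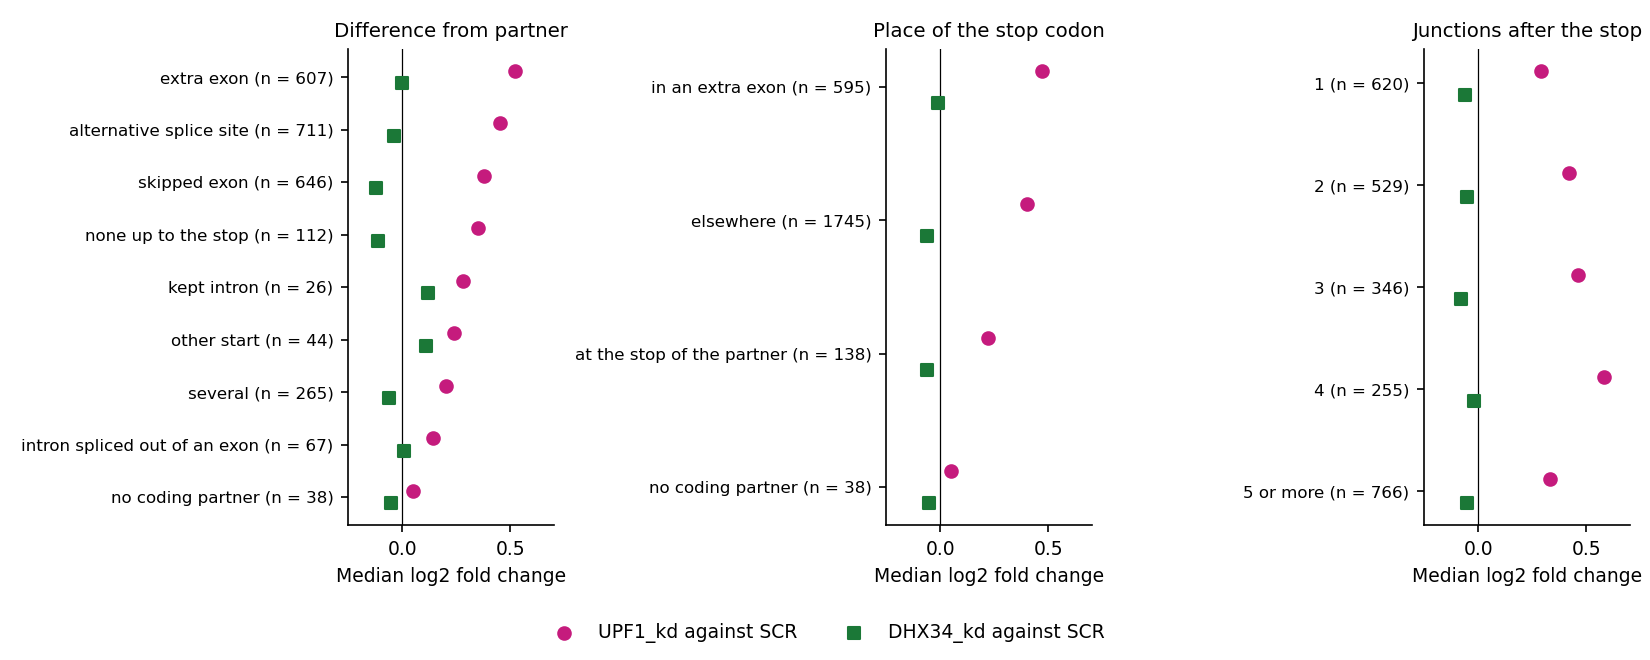
Median edgeR log2 fold change (x axis) of the NMD-annotated transcripts in classes (y axis, with the number of transcripts) by difference from the coding partner, place of the stop and number of exon junctions after the stop. Circles stand for UPF1_kd against SCR and squares for DHX34_kd against SCR. The UPF1_kd medians reach 0.52 with an extra exon, 0.47 with the stop in one and 0.58 with 4 junctions, while the DHX34_kd medians lie between -0.12 and 0.12.

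Transcripts that made up a small share of their gene had higher median changes in UPF1_kd, with the share read in the DHX34_kd libraries, which that comparison does not use. This reading was added after seeing the data. It took transcripts of at least 1 TPM in DHX34_kd that had a coding partner and the same length in both annotations. The median log2 fold change was 0.70 for the 128 that held up to 1% of the sum of themselves and the coding transcripts. It was 0.58 for the 474 with 1 to 5% and 0.39 for the 828 with 5 to 20%. For the 522 with 20 to 50% it was 0.13, and for the 186 over 50% it was 0.08. All 8 falls among them were in the classes over 20%, with 4 from 20 to 50% and 4 over 50%. The risen shares were 8.73%, 6.36%, 3.52%, 3.65% and 5.38% in the same order and did not fall steadily as the medians did, and in the class over 50% there were 10 rises. For DHX34_kd against SCR, read by the share in UPF1_kd, the medians in the same order were -0.11, -0.08, -0.03, -0.05 and -0.11.

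The transcripts were then read by the role of their gene, in lists described by counts and medians, with no test of a list. Of all transcripts tested in UPF1_kd against SCR, 0.97% rose and 1.62% fell. The lists hold only NMD-annotated transcripts, so the nearer reference is the share over all of these. Of the 2708 tested, 4.43% rose and 0.369% fell, with a median log2 fold change of 0.38. The lists too hold transcripts chosen on a mean that includes UPF1_kd, so their counts and medians carry that choice. Apart from the 2 most abundant of a list, its risen and fallen transcripts were named after their values were seen. Splicing regulators of the SR group had 34 of these transcripts in 22 genes. In UPF1_kd 6 of 34 rose and 0 fell, with a median log2 fold change of 0.63, and in DHX34_kd the median was -0.09. The 6 were SRSF10-215, SRSF4-205, SRSF2-204, SRSF7-204, TRA2B-205 and SRSF3-203. TRA2B-205 (ENST00000456380, chr3:185917330-185938029), from the gene of a splicing activator, has its stop in an extra exon of 276 nt and had 39.4, 42.6 and 35.1 TPM in SCR, 39.3, 37.8 and 41.4 in DHX34_kd and 120.9, 130.1 and 120.4 in UPF1_kd. It held 25.3% of the sum of itself and the coding transcripts in SCR, 27.0% in DHX34_kd and 54.7% in UPF1_kd, and it rose by a log2 change of 1.41 (SE 0.06, adjusted p 0.000415 by edgeR) while the coding sum fell by 0.26 (adjusted p 0.000149).

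SRSF3-203, with a stop in an extra exon of 456 nt, had 51, 45.8 and 45.1 TPM in SCR, 55.1, 50 and 52.8 in DHX34_kd and 81.8, 85.8 and 89.3 in UPF1_kd, a log2 change of 0.60 (SE 0.07, adjusted p 0.00409 by edgeR). UPF1_kd was above the other groups in both TRA2B-205 and SRSF3-203, which are the most abundant of the group. Summed coding transcripts rose in 0 and fell in 9 of the 22 SR genes in UPF1_kd by edgeR, beside 13.5% and 14.3% of all coding sums. In TPM 5 of these 9 had a lower mean in UPF1_kd and 4 a higher one. The median over the 22 was -0.11 by edgeR and 0.07 in TPM, so its sign depended on the scale.

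Genes of hnRNP proteins and related splicing regulators held 51 of the transcripts, of which 50 were tested. Among these 4 rose (RBM39-206, HNRNPDL-202, RBM39-216 and HNRNPA2B1-203) and 1 fell (HNRNPA1-205), with a median of 0.36 in UPF1_kd and 0.01 in DHX34_kd. HNRNPA1-205 had 867.5, 866.8 and 856.2 TPM in SCR, 756.0, 744.5 and 793.8 in DHX34_kd and 810.0, 834.4 and 826.1 in UPF1_kd, with the knockdowns below SCR. HNRNPU-228 had 121.7, 139.2 and 124.7 TPM in SCR and 140.7, 154.5 and 136.4 in UPF1_kd, where the groups overlapped. Of the core spliceosome 3 of 29 transcripts rose, SNRPA1-207, SF1-211 and SNRPB-203, and 0 fell, with medians of 0.58 and 0.02. Its most abundant ones had other courses: SNRNP27-203, which held at least 63.4% of its gene's sum in each group, had a log2 fold change of -0.10 (edgeR adjusted p 0.436) in UPF1_kd, and DDX23-213 had 0.16 (adjusted p 0.861).

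Genes of cytosolic ribosomal proteins held 41 of the transcripts, and of 40 tested 6 rose and 1, RPS3-218, fell in UPF1_kd. The 6 were RPS9-208, RPL3-204, RPLP0-214, RPLP0-221, RPL27A-212 and RPL13A-214. RPL13A-214 rose from 64.4 ± 0.236 to 166.3 ± 2.67 TPM (SD, n = 3), with 49.3 ± 2.73 in DHX34_kd, and its log2 fold change was 1.12 in UPF1_kd (edgeR adjusted p 8.39e-05). RACK1-224 had 393.0, 348.8 and 329.4 TPM in SCR, 301.3, 300.3 and 278.1 in DHX34_kd and 466.5, 460.5 and 510.0 in UPF1_kd, without passing either test against SCR. The median log2 fold change of the list was 0.34 in UPF1_kd and -0.34 in DHX34_kd, and the coding sums fell by edgeR in 22 of 23 genes tested in UPF1_kd and in 21 of 23 in DHX34_kd and rose in 0 in both, where 14.3% and 7.35% of all coding sums fell. In TPM the mean was lower in 20 of the 22 and in all 21. The median over the 23 was -0.32 by edgeR and -0.15 in TPM in UPF1_kd, and -0.31 and -0.16 in DHX34_kd.

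Genes of translation factors and aminoacyl-tRNA synthetases had 48 of the transcripts, of which 8 rose and 0 fell in UPF1_kd, with a median of 0.85 (-0.15 in DHX34_kd). They were EIF3E-215, EIF3G-205, EIF3I-204, YARS1-207, EIF6-206, EIF4A2-202, EIF4A2-203 and EIF4A2-204, where EIF4A2 is a helicase of translation initiation. EIF4A2-203 went from 19.7 ± 0.927 TPM in SCR to 17.7 ± 3.9 in DHX34_kd and 47.5 ± 3.28 in UPF1_kd (SD, n = 3). The 2 most abundant of the list did not pass the test: EIF3F-208 had a log2 fold change of -0.28 (edgeR adjusted p 0.0471) and TARS1-209 of -0.31 (adjusted p 0.00696).

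Respiratory chain and mitochondrial ribosome genes had 62, with 5 risen (ATP5F1A-211, NDUFA5-204, MRPL10-204, NDUFB5-203 and UQCRH-205) and 1 fallen (UQCRB-203), and medians of 0.60 in UPF1_kd and -0.21 in DHX34_kd. UQCRH-205, of complex III, rose from 40.6 ± 2.28 TPM in SCR to 118.2 ± 3.86 in UPF1_kd, with 38.7 ± 0.611 in DHX34_kd (SD, n = 3). UQCRB-203 had 140.4, 137.8 and 140.3 TPM in SCR, 123.1, 127.3 and 128.3 in DHX34_kd and 122.6, 121.4 and 127.2 in UPF1_kd, and COX6C-207 had a log2 fold change of -0.32 (edgeR adjusted p 0.0101) in UPF1_kd. Proteasome and ubiquitin genes had 40, of which 1 (PSMC6-205) rose, with medians of 0.55 and -0.11. Its most abundant ones, UBE2D3-220 and PSMD13-202, had -0.08 (edgeR adjusted p 0.427) and -0.19 (adjusted p 0.0853).

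The lists of mitosis and mRNA decay held no call by edgeR at 0.005 in UPF1_kd. With 4.43% risen over all the NMD-annotated transcripts, lists of 46 and 12 can hold few calls. Over all 2708 tested NMD-annotated transcripts 949 were higher and 175 lower in UPF1_kd at an edgeR unadjusted p under 0.05. DESeq2 called 471 risen and 74 fallen among the 2721. Shares over all transcripts are not given for these counts, so they serve only as a reference for the lists. Of 46 transcripts of mitosis, replication and DNA repair genes 0 rose and 0 fell by edgeR at 0.005, with 13 higher and 1 lower at an unadjusted p under 0.05 and 4 risen and 0 fallen by DESeq2, and the median was 0.43 in UPF1_kd and -0.01 in DHX34_kd. MAD2L1-202, of a spindle checkpoint protein, had 82.4, 86.5 and 88.0 TPM in SCR and 96.5, 96.5 and 101.5 in UPF1_kd, and CDK4-215 had a log2 fold change of 0.16 (edgeR adjusted p 0.581). Among 12 of general mRNA decay genes 0 rose and 0 fell by edgeR, with 3 higher and 2 lower at an unadjusted p under 0.05, 2 risen and 2 fallen by DESeq2 and medians of 0.17 and 0.00. LSM6-207 had -0.34 (edgeR adjusted p 0.0359) and SKIC8-209 0.16 (adjusted p 0.854) in UPF1_kd.

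The NMD pathway's own genes held 9 of these transcripts, in 5 genes. In UPF1_kd 0 rose and 1 fell (RUVBL2-201) by edgeR, with 6 higher and 1 lower at an unadjusted p under 0.05 and 3 risen and 1 fallen by DESeq2. The median log2 fold change was 0.70, and in DHX34_kd the median was -0.02. Over all the NMD-annotated transcripts the unadjusted counts were 949 and 175 of 2708 tested, and those by DESeq2 471 and 74 of 2721. Shares over transcripts of every type are not given for these. RUVBL2 codes for an ATPase that acts in the assembly of NMD kinase complexes. RUVBL2-201 had 138.8, 129.2 and 135.4 TPM in SCR, 133.9, 128.3 and 121.9 in DHX34_kd and 123.1, 118.1 and 117.8 in UPF1_kd (log2 fold change -0.41, edgeR adjusted p 0.0035). RUVBL2-208 had 18.0, 22.7 and 18.4 TPM in SCR, 22.1, 10.3 and 16.6 in DHX34_kd and 37.3, 44.6 and 38.4 in UPF1_kd, a log2 fold change of 0.79 that did not pass the test (adjusted p 0.00685). The isoforms of this gene thus had changes of opposite sign, of which the fall passed the test.

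At the gene level, with all transcripts summed, 10 of 30 genes of NMD factors and the exon junction complex rose and 10 fell in UPF1_kd, beside 12.4% and 12.9% of all 17184 genes tested. All 10 rises had a higher mean in TPM, with UPF1_kd libraries above all SCR libraries. Of the 10 falls 7 had a lower mean in TPM and 3 a higher one (GSPT1, PNRC2 and STAU1), and for 3 of the 7 all UPF1_kd libraries lay below all SCR libraries in TPM. The knockdown target UPF1 was among those that fell, from 49.2 to 23.1 TPM. SMG1, the kinase of UPF1, rose by a log2 fold change of 0.62, the cofactor UPF2 by 0.51, SMG5 by 0.51 and SMG6 by 0.42. In DHX34_kd 1 rose (MOV10) and 3 fell (DHX34 itself, MAGOH and RBM8A), beside 5.54% and 4.86% of all 17004 genes tested.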

How the data were processed

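Poly(A) RNA of 9 K562 libraries was sequenced (3 per group). The authors quantified transcripts with salmon against Ensembl release 93 (GRCh38) and deposited, per library, an estimated count (the expected count of reads) and a TPM value for each of 203027 transcripts. Further tables hold the authors' own comparisons by sleuth and SUPPA2 and were not used.

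Transcript types, exons and stop codons came from GENCODE release 44 (GRCh38). By identifier 97.9% of transcripts matched, and of these 85.8% had the same length, so features were read for those with the same length only. Expected counts were rounded and fitted with edgeR 4.0.16 (TMM, quasi-likelihood test, filterByExpr with a minimum count of 10), separately for each pair of groups, over all transcripts. P-values were adjusted by the Benjamini-Hochberg method, and a transcript was called at an adjusted p of at most 0.005, the level the study used. Sums of coding transcripts and of genes were fitted likewise. The log2 ratio of a transcript to the other coding transcripts of its gene was tested with limma 3.58.1 with 0.1 TPM added and a mean of at least 0.1 TPM. DESeq2 1.42.0 was an alternative. R 4.3.3, Python 3.11.15 and matplotlib 3.10.9 were used.

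Simulated data for the UPF1 knockdown against SCR (62497 transcripts, 100 changed at each size) gave 20% of 2-fold and 33% of 4-fold changes called by edgeR at 0.005. The changed transcripts were drawn from those above a floor of expected counts, so these shares do not cover lower ones. Counting error is small at these depths (73478797 to 103625443 counts), and replicates differed by 16.8 to 23.2 times the sampling variance (chi-square per degree of freedom), so none was a copy of another.

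Named transcripts were, among those called whose mean was 2 TPM or more and whose knockdown libraries all lay on one side of SCR, the 20 largest rises and 5 largest falls (1 per gene) in the UPF1 knockdown. For the DHX34 knockdown, without enough calls, they were the 5 smallest p-values. To these were added the 2 most abundant of each list, the 5 most abundant of all, those of DHX34 and UPF1, and 3 on either side of the 1 TPM limit. The transcripts and lists were chosen with earlier results of these data known. A choice among the 2721 transcripts on the group outside a comparison was added after seeing the data. So were the classes by share of the gene and the direction of coding and gene sums in TPM. The lymphocyte markers and the gene-level value of 1 NMD factor are not reported here.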

Additional observations from a re-analysis of the deposited data

Results flagged for a closer look

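The response to the knockdowns differed in a direct test of the UPF1 against the DHX34 libraries, in which 114 of the expressed NMD-annotated transcripts were higher and 1 was lower in the UPF1 knockdown. Among the named transcripts 14 were called in it by edgeR. RBM39-206 was at least 938-fold and HNRNPDL-202 at least 470-fold higher. The log2 differences were 2.84 for SNRPA1-207, 3.02 for DNAJC7-205, 2.96 for SNRPB-203, 2.42 for DNAJC25-202, 2.3 for SLC25A3-213, 2.41 for TPM3-219, 2.4 for SRSF10-215, 2.53 for EIF3G-205, 1.66 for LDHA-222, 2.25 for TMEM208-203, 1.59 for TRA2B-205 and 0.64 for SRSF3-203. The number called fell to between 7 and 47 when a library was left out, and no cause of the difference was tested.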

How the results depend on the processing

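Counts of called NMD-annotated transcripts depended on the threshold and the tool, and the cause was not tested. At an adjusted p of at most 0.05 the UPF1 knockdown had 518 risen and 71 fallen against SCR, the DHX34 knockdown 16 and 40, and 487 were higher and 25 lower in the UPF1 than in the DHX34 knockdown. DESeq2 gave 471 and 74, 25 and 63, and 513 and 31. Its shares over all transcripts are given for DHX34 only, 2.55% risen and 3.2% fallen, so the other counts have no such background. Limma on log2(TPM + 0.5) gave 211 and 0 for UPF1, 0 and 1 for DHX34, and 2 lower between the knockdowns. The fit of all 9 libraries gave 2 and 8 for DHX34 and 3 lower between the knockdowns, and no filter gave 1 and 2, and 2 lower. Leaving out a library gave 3 to 42 risen and 0 to 4 fallen for UPF1, 7 to 47 higher and 0 to 1 lower between the knockdowns, and 0 risen ratios in every case. Ratios to coding transcripts at 0.05 gave 56 risen for UPF1, 5 risen and 2 fallen for DHX34, and 44 higher and 1 lower between the knockdowns, and with 1 TPM added 31 risen for UPF1 and 22 higher and 1 lower between them. No filter gave 1 risen ratio for DHX34. The median ratio difference between libraries' medians, 0.57 for UPF1, was 0.47 with 0.5 TPM added, 0.37 with 1 TPM and 0.44 for transcripts at 1 TPM in SCR. That of DHX34, 0.03, was -0.03 with 1 TPM and -0.05 for transcripts at 1 TPM in SCR. The rise of the share of TPM in the UPF1 knockdown, 0.658 percentage points, was 0.577 for transcripts at 1 TPM in SCR and 0.499 in expected counts. Coding sums called at 0.05 were 1031 for UPF1 and 752 for DHX34, and for DHX34 523 by DESeq2 and 111 to 258 without a library.

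Deviations of libraries with the same replicate number had correlations of -0.06 to 0.14, and those with other numbers -0.12 to 0.13. These values show no pairing by number, but with 3 libraries a group they cannot exclude one. With the replicate number as a block 0 transcripts and 0 ratios were called in the UPF1 knockdown against SCR or between the knockdowns, in both directions. For DHX34 164 coding sums were called. The cause of the lower counts was not tested.

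Of 624 values of named transcripts in the UPF1 knockdown recomputed under the alternatives, 433 kept their direction and side of the threshold, 176 lost their call, 15 gained one and 0 changed sign. With 3 libraries a group few isoform changes can be called, and levels of isoforms that share most exons depend on the quantification.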

Other observations

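Other transcript types at a mean of at least 1 TPM were set beside the NMD-annotated ones in the UPF1 knockdown against SCR, as counts with no test between types. Of 2046 lncRNA transcripts tested by edgeR 105 (5.13%) rose and 10 (0.489%) fell, with a median log2 fold change of 0.07, so the share of calls was above that of the NMD-annotated transcripts (4.43%) and the median below theirs (0.38). Of 4003 transcripts with a retained intron 34 (0.849%) rose and 28 (0.699%) fell, with a median of 0.10. Of 116 processed transcripts 5 (4.31%) rose. Protein-coding transcripts had 1.23% risen and 4.25% fallen of 21785 tested, with a median of -0.07, and those in genes with an expressed NMD-annotated transcript (1.37% and 4.35%) were close to those in the other genes (1.18% and 4.21%).

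NMD-annotated transcripts with a mean under 1 TPM numbered 12400, of which 3403 had enough counts to be tested. Of these 9 (0.264%) rose and 2 fell, and the median log2 fold change was 0.65. The filter keeps low transcripts that are high in 1 group, so that median is no measure of all 12400.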
